A study of Mus musculus with 6 samples.

Results

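The postsynaptic density genes described here are 32 genes that encode the scaffolds of the excitatory synapse and proteins bound to them, with gephyrin as the scaffold of the inhibitory synapse. They were chosen by gene symbol from a table of 54532 genes, and all 32 were found there. The table holds RNA levels in cerebral cortex of mice aged 12 months, from 3 wild-type (WT) libraries and from 3 whose genotype label is Fam69c knockout (KO). Fam69c encodes a kinase-like protein of the secretory pathway, and the title of the series concerns stress granules and the inflammasome, so these genes are a measurement beside the study's own question. The sources used here give no sex, no strain and no account of how the knockout was made. The labels do not tie each library to a mouse of its own. The p-values here set the difference between groups only against the spread between libraries, which may be technical.

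The postsynaptic density is a protein sheet under the membrane of the spine head, facing the release site. MAGUK proteins such as PSD-95 hold receptors and adhesion molecules by their PDZ domains. GKAP proteins, encoded by the Dlgap genes, link the MAGUKs to Shank, and Shank binds Homer, which reaches to metabotropic glutamate receptors and to the actin cytoskeleton. TARPs, encoded by Cacng genes, tie AMPA receptors to PSD-95. Exchange factors and GTPase activators at the same site set the activity of small GTPases that shape the spine.

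Each library held between 30935326 and 35065884 reads, recovered from the deposited FPKM values (reads scaled by gene length and by library depth). Fam69c RNA was present in every library, at 2.03, 1.57 and 2.08 FPKM in WT and at 1.54, 1.84 and 1.42 FPKM in KO. The groups overlapped, so RNA level does not check the genotype labels, and KO below means the libraries as labelled. Genes that mark striatal projection neurons, which lie next to cortex in dissection, summed to between 188 and 514 FPKM in WT and between 249 and 465 FPKM in KO. WT replicate 3 and KO replicate 1 stood apart as the lowest in these genes, so results are also given without this pair. The other marker lists overlapped between the groups in their summed level. Sums can hide single genes. Of 5 astrocyte markers 2 had an unadjusted limma p under 0.05, Aldh1l1 higher in KO and Gfap lower. Of 5 excitatory neuron markers 1 did, Neurod6, higher in KO. The share over all genes tested was 3.82%, and each of these genes had an adjusted limma p of 0.999. Excitatory neuron genes summed to between 457.5 and 463 FPKM in WT and between 437 and 472 FPKM in KO, and in the 8 marker lists 0 genes were at 0 in all libraries. In bulk tissue, fewer cells of a type and less RNA per cell cannot be told apart.

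Promoters are shown for 4 members, because the mean levels of the Homer genes lie furthest apart within a family and Cacng2 came closest to a difference between the groups. Each run is the 250 bases before a RefSeq start, read 5′ to 3′ along the gene, on GRCm38.p6, the build also called mm10. Capitals mark matches, on either strand, to GGGCGG (a GC box), TGACG (the core of the cAMP response element), CACGTG (an E-box), TATAAA, GCGGGGGCG (an EGR site), TGACGTCA (a full cAMP response element, which contains TGACG) and the NRF1 site.
Homer1 promoter: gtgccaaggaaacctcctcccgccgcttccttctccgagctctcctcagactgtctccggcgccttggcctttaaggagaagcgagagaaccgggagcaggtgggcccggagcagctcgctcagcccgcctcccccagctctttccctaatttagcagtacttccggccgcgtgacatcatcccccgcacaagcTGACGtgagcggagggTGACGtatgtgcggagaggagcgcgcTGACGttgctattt
Homer2 promoter: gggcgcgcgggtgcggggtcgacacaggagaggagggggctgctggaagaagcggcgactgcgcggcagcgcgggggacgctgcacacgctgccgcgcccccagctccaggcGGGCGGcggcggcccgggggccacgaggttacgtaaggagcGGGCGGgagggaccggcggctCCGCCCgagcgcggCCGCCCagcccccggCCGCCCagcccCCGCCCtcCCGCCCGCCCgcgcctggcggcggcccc
Homer3 promoter: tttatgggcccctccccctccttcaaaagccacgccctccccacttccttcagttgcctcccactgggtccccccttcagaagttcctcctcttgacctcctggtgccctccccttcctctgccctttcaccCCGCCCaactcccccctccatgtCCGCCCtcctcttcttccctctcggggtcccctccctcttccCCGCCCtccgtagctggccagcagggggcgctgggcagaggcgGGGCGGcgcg
Cacng2 promoter: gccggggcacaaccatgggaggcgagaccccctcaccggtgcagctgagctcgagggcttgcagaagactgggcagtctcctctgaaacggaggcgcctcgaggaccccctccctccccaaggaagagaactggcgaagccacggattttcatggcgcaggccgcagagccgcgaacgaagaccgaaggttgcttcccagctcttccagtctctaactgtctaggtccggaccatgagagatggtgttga
The Homer1 run (chr13:93303507-93303756, plus strand) holds 3 matches to TGACG and 21 CpG. The Homer2 run (chr7:81706926-81707175, minus strand) holds 8 GC boxes and 40 CpG. Homer1 and Homer2 each have another RefSeq window that differs: the Homer1 one (chr13:93307784-93308033) holds 7 CpG and 0 matches, and the Homer2 one (chr7:81692966-81693215) holds 3 CpG, 0 GC boxes and 1 TATAAA. The Homer3 run (chr8:70282749-70282998, plus strand) holds 4 GC boxes and 11 CpG. The Cacng2 run (chr15:78119281-78119530, minus strand) holds 16 CpG and none of the 7 motifs. RefSeq windows were found for 27 of the 32 members, 47 windows in all. Their median GC content was 64.8%, against 52.4% over 32851 windows of all genes, and their median number of CpG was 13 against 6. A GC box was in 53.2% of the member windows and 32.7% of all windows. TGACG was in 10.6% against 17.8%, TATAAA in 10.6% against 12.4% and CACGTG in 12.8% against 6.02%. GCGGGGGCG was in 6.38% against 2.57%, TGACGTCA in 0% against 1.55% and the NRF1 site in 0% against 0.782%. Windows of 1 gene can overlap, and a match says only that these letters are present. By the gene positions given with the FPKM values, the printed Homer1, Homer2 and Cacng2 runs lie inside the annotated gene. The printed Homer3 run crosses the start of its gene.

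Cortex libraries held these RNAs at high levels. The median member stood at 32.5 FPKM, against 4.98 FPKM for the 15694 genes tested, those whose mean reached 0.5 FPKM, and at the 90.2nd percentile of those genes. All 32 members passed that filter. Together they made up 0.623% ± 0.0129 of the summed FPKM in WT and 0.613% ± 0.0358 in KO (SD, n = 3 each). From the highest to the lowest, mean levels spanned 191-fold. Of the 31 neighbouring pairs in the order of levels, 10 were separated in all 6 libraries and 21 overlapped. FPKM is per base of all annotated exons of a gene, so it does not separate isoforms, of which the members have from 1 to 22 annotated transcripts each.

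**Figure D1:**
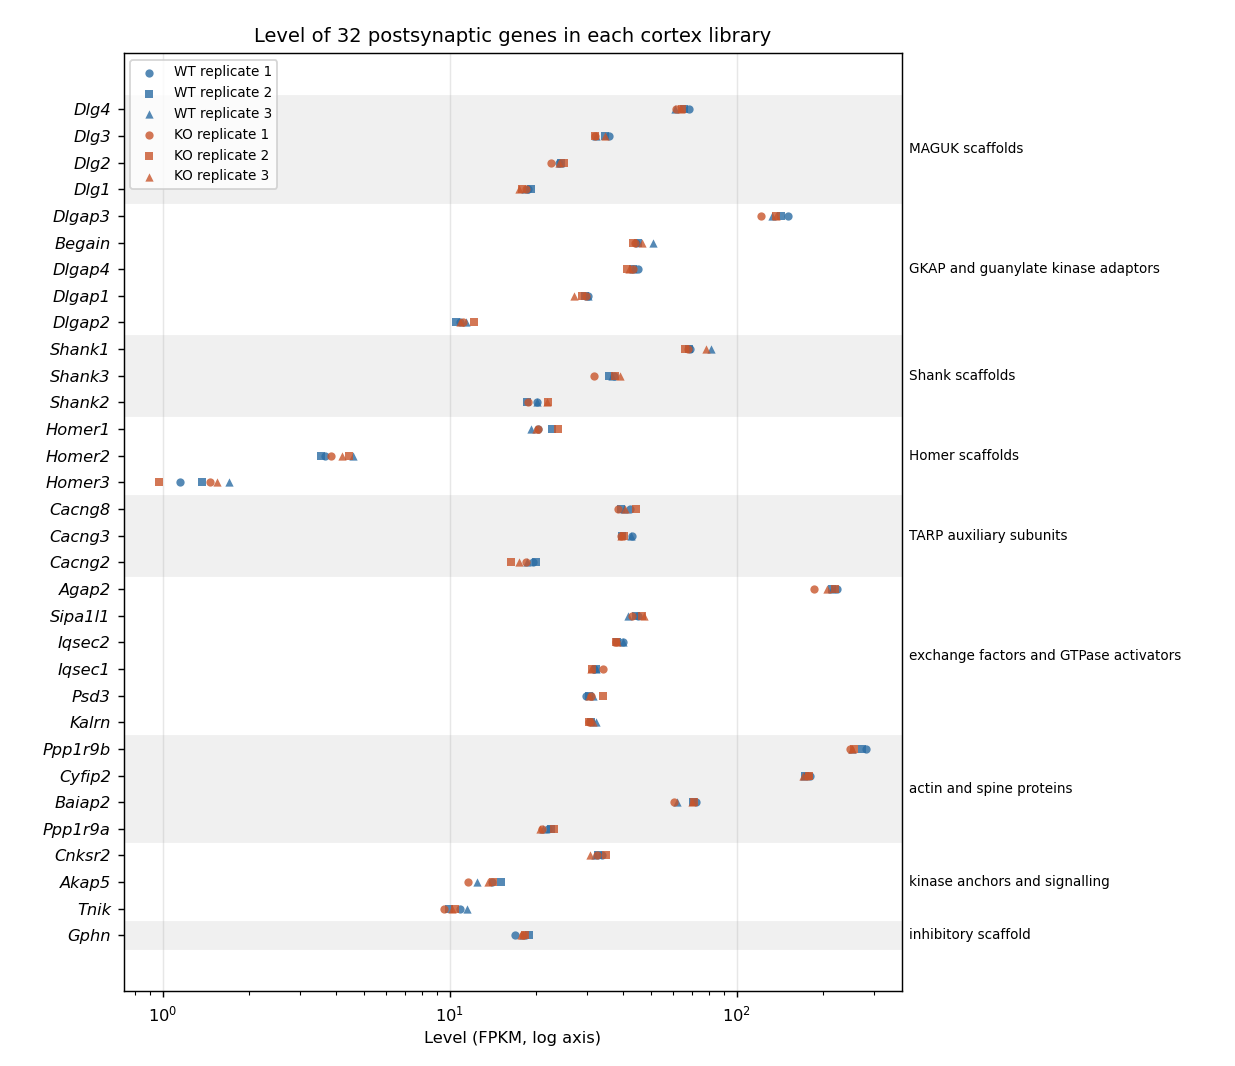
Level of each of the 32 genes in the 6 libraries, as FPKM on a log axis, with genes grouped by role. Blue is WT and orange is KO, and the marker shape is the replicate. Ppp1r9b stands highest, between 248 and 282 FPKM, and Homer3 lowest, between 0.968 and 1.69 FPKM.

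The top of the order was held by 4 genes above 100 FPKM in every library, and none of them is a MAGUK. Ppp1r9b, encoding spinophilin, which brings protein phosphatase 1 to the spine (mm10 chromosome 11, 94991035 to 95006899), read 282, 272 and 252 FPKM in WT and 248, 256 and 253 FPKM in KO. Agap2, a GTPase activator for Arf proteins (chromosome 10, 127075284 to 127093169), read 224, 214 and 214 FPKM in WT and 186, 219 and 207 FPKM in KO. Cyfip2, a subunit of the WAVE complex that drives branched actin (chromosome 11, 46193850 to 46312859), read 180, 172 and 172 FPKM in WT and 178, 178 and 169 FPKM in KO. These 3 kept this order in all libraries, with no overlap between neighbours. Dlgap3, encoding the GKAP protein SAPAP3 (chromosome 4, 127169204 to 127237022), came next, with 151, 143 and 132 FPKM in WT and 122, 137 and 137 FPKM in KO. KO replicate 1 was the lowest library for Ppp1r9b, Agap2 and Dlgap3, but not for Cyfip2.

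Among the MAGUK genes, Dlg4, encoding PSD-95 (chromosome 11, 70016942 to 70047522), was highest. It read 67.9, 65.6 and 60.8 FPKM in WT and 61.3, 64.6 and 64.1 FPKM in KO. Dlg1, encoding SAP97 (chromosome 16, 31663443 to 31875129), was lowest, at 18.7, 19.2 and 18.2 FPKM in WT and 18.4, 17.8 and 17.4 FPKM in KO. Within each library Dlg4 stood from 3.32 to 3.69 times above Dlg1. Dlg3, encoding SAP102 (chromosome X, 100767722 to 100818410), averaged 33.5 FPKM and Dlg2, encoding PSD-93 (chromosome 7, 90476672 to 92449247), 24.0 FPKM. All 4 estimates of the log2 fold change of KO over WT were below 0, from -0.07 for Dlg1 to -0.03 for Dlg2, and 0 passed. The 95% interval ran from -0.16 to 0.10 for Dlg4 and from -0.18 to 0.04 for Dlg1. Dlg4 turned to 0.00 without WT replicate 1, and Dlg2 to 0.01 without KO replicate 1.

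In the GKAP genes the spread of levels was wider. Dlgap2 (chromosome 8, 14095865 to 14847680) read 10.8, 10.5 and 11.4 FPKM in WT and 11.1, 12.2 and 10.9 FPKM in KO, so that Dlgap3 stood from 11.0 to 13.9 times above it. Dlgap4 averaged 43.2 FPKM and Dlgap1 29.3 FPKM. Begain, which binds the guanylate kinase domain of PSD-95, averaged 45.9 FPKM, with its highest value, 50.9 FPKM, in WT replicate 3. Log2 fold changes ran from -0.10 for Dlgap3 to 0.06 for Dlgap2, 4 of 5 were below 0, and 0 passed. The interval for Dlgap3 ran from -0.28 to 0.07. Begain turned to 0.01 without the pair of WT replicate 3 and KO replicate 1.

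Shank genes had the middle position of this chain at unequal levels. Shank1 (chromosome 7, 44310253 to 44360572) read 68.5, 68.3 and 81.0 FPKM in WT and 67.6, 66.0 and 77.9 FPKM in KO. The third replicate was the highest in each group. Shank2 (chromosome 7, 144001928 to 144424494) read 20.0, 18.6 and 20.1 FPKM in WT and 18.7, 22.0 and 21.8 FPKM in KO. Shank3, mutated in Phelan-McDermid syndrome (chromosome 15, 89499623 to 89560261), read 37.2, 35.7 and 36.6 FPKM in WT and 31.9, 37.7 and 39.1 FPKM in KO. Its lowest and its highest value were both in KO. Log2 fold changes were -0.04 for Shank1, 0.08 for Shank2 and -0.02 for Shank3, with 0 past the threshold. Shank2 had the highest estimate of the 32 members, with an interval from -0.09 to 0.26. Without KO replicate 1, Shank3 turned to 0.07, and without WT replicate 3, Shank1 turned to 0.04.

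The Homer genes, whose products cross-link Shank with metabotropic receptors, had mean levels further apart than the other families. Homer1 (chromosome 13, 93299635 to 93405129) read 20.2, 22.7 and 19.1 FPKM in WT and 20.3, 23.7 and 20.0 FPKM in KO. The second replicate was the highest in each group. Homer2 (chromosome 7, 81600481 to 81707527) lay between 3.55 and 4.59 FPKM. Homer3 (chromosome 8, 70282827 to 70294361) read 1.14, 1.37 and 1.69 FPKM in WT and 1.46, 0.968 and 1.54 FPKM in KO. Homer1 stood from 11.3 to 24.5 times above Homer3, and this ratio had the largest SD of the 7 families. In WT replicate 3, at 11.3, it lay below the Dlgap3 to Dlgap2 ratio of 11.6. Homer3 rested on 111 to 193 reads per library and had the widest interval of the members, from -0.46 to 0.33. It shares 874 exon bases, 25.4% of its length, with Ddx49 on the other strand, a gene at 5.34 to 6.34 FPKM. Use of strand in counting is not stated in the sources used here, so reads in the shared bases cannot be told apart.

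Homer1 also makes a short, activity-induced form, Homer1a, which gene-level FPKM does not separate from the long forms. Its log2 fold change was 0.04, with an interval from -0.17 to 0.26. Over the same libraries 16 immediate early genes, which neurons switch on when active, had a median of -0.28, with 16 of 16 estimates below 0, 1 unadjusted p under 0.05 and 0 past the threshold (smallest limma adjusted p = 0.999). WT replicate 3 was the highest library for that list, with a mean deviation of 0.47 log2 units, and the lowest for Homer1. Without WT replicate 3 the median of the early genes was -0.09, without KO replicate 1 it was -0.18, and with sample weights -0.12. Without both libraries it was -0.03, with 10 of 16 estimates below 0. Without WT replicate 3, Homer1 turned to -0.01, and without KO replicate 2 to -0.03.

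TARP genes encode the subunits that carry AMPA receptors to the synapse. Cacng2, encoding stargazin (chromosome 15, 77991748 to 78120028, minus strand), read 19.4, 19.9 and 18.5 FPKM in WT and 18.4, 16.3 and 17.3 FPKM in KO. All 3 KO libraries lay below all 3 WT libraries, with KO replicate 1 and WT replicate 3 close together. The log2 fold change of Cacng2 was -0.15 (SE 0.06, interval -0.29 to -0.01). The unadjusted limma p was 0.0381, and adjusted over all genes it was 0.999, so Cacng2 did not pass. With sample weights the log2 fold change was -0.20 (limma unadjusted p = 0.00668, adjusted p = 0.508). In that setting 1420 of all genes tested had an unadjusted p under 0.05, against 599 without weights. Without KO replicate 2 the log2 fold change of Cacng2 was -0.11 (limma unadjusted p = 0.129). Cacng2 shares 323 exon bases with A730060N03Rik on the other strand, which read 2.31, 1.96 and 2.23 FPKM in WT and 2.01, 2.13 and 2.43 FPKM in KO. Cacng8, encoding TARP gamma-8 (chromosome 7, 3390683 to 3415648), read 42.5, 39.5 and 40.5 FPKM in WT and 38.4, 44.5 and 40.6 FPKM in KO. Cacng3 averaged 40.8 FPKM, and its log2 fold change was -0.07 with an interval from -0.18 to 0.04. Cacng8 stood from 1.99 to 2.74 times above Cacng2.

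Of the exchange factors and GTPase activators, Iqsec2 was the other member whose groups did not overlap. Iqsec2, an Arf exchange factor linked to intellectual disability (chromosome X, 152144268 to 152225236), read 40.0, 38.2 and 40.2 FPKM in WT and 38.0, 38.0 and 38.1 FPKM in KO. The gap between the lowest WT and the highest KO library was small, 38.2 against 38.1 FPKM. Its log2 fold change was -0.05 with an interval from -0.15 to 0.05 (limma adjusted p = 0.999). Iqsec1 (chromosome 6, 90656088 to 90988685) read 31.9, 32.3 and 32.3 FPKM in WT and 34.2, 31.3 and 30.9 FPKM in KO. Kalrn, an exchange factor for Rac, averaged 31.2 FPKM, and Psd3, for Arf6, 31.3 FPKM. Sipa1l1, a Rap GTPase activator, averaged 44.8 FPKM. Log2 fold changes of these 6 genes ran from -0.09 for Agap2 to 0.06 for Sipa1l1, and 0 passed. Agap2 was at -0.03 without KO replicate 1.

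Among the actin and spine proteins, Ppp1r9a, encoding neurabin, the relative of spinophilin (chromosome 6, 4902917 to 5165661), read 21.9, 22.5 and 21.1 FPKM in WT and 20.9, 23.1 and 20.6 FPKM in KO. Ppp1r9b stood from 11.1 to 12.9 times above it. Baiap2, encoding IRSp53, which links Rac and Cdc42 to actin, averaged 67.6 FPKM, with WT replicate 3 and KO replicate 1 lowest at 61.9 and 60.6 FPKM. The interval of the log2 fold change ran from -0.11 to 0.12 for Cyfip2 and from -0.23 to 0.05 for Ppp1r9b, whose estimate was -0.09. All 4 estimates in this group failed the test.

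For the kinase anchors and signalling proteins, Akap5, the anchor of protein kinase A and calcineurin, averaged 13.4 FPKM. Cnksr2, a scaffold of the Ras pathway, averaged 32.8 FPKM and Tnik, a kinase that binds Nck, 10.4 FPKM. Their log2 fold changes were -0.07, -0.01 and -0.09, and 0 passed. Gphn, the scaffold under glycine and GABA-A receptors, read 16.9, 18.8 and 18.0 FPKM in WT and 18.0, 18.3 and 17.6 FPKM in KO. Its log2 fold change was 0.00 with an interval from -0.12 to 0.13.

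Of all 15694 genes tested, 0 passed an adjusted p of 0.05 in limma (0.0%), and 599 had an unadjusted p under 0.05 (3.82%), split into 2.19% lower in KO and 1.63% higher. Of the 32 members 0 passed and 1, Cacng2, had an unadjusted p under 0.05 (3.12%). With voom, also from limma, on recovered reads the counts were again 0 and 1. Groups did not overlap for 2 of 32 members (6.25%), Cacng2 and Iqsec2, against 8.87% of all genes. Both members were lower in KO, a direction held by 4.7% of all genes, with 4.17% higher. Both shares of members lay near those of all genes. The estimate was below 0 for 23 of 32 members (71.9%), against 52.0% of all genes. That split moved with the scaling, and so did the share of all genes. With each library scaled to the same sum, 18 of 32 members (56.2%) were below 0, against 42.5% of all genes. With scaling to the same median, 26 of 32 (81.2%) were below 0, against 56% of all genes. The count was 19 of 32 (59.4%) with sample weights, against 51.7% of all genes. It was also 19 of 32 without KO replicate 1, against 51.5%. The median log2 fold change of the members was -0.03, against 0.00 over all genes. It was -0.01 without KO replicate 1 and -0.05 without KO replicate 2, against -0.004 and -0.005 over all genes. When libraries were scaled to the same sum it was -0.0075, against 0.017 over all genes.

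**Figure D2:**
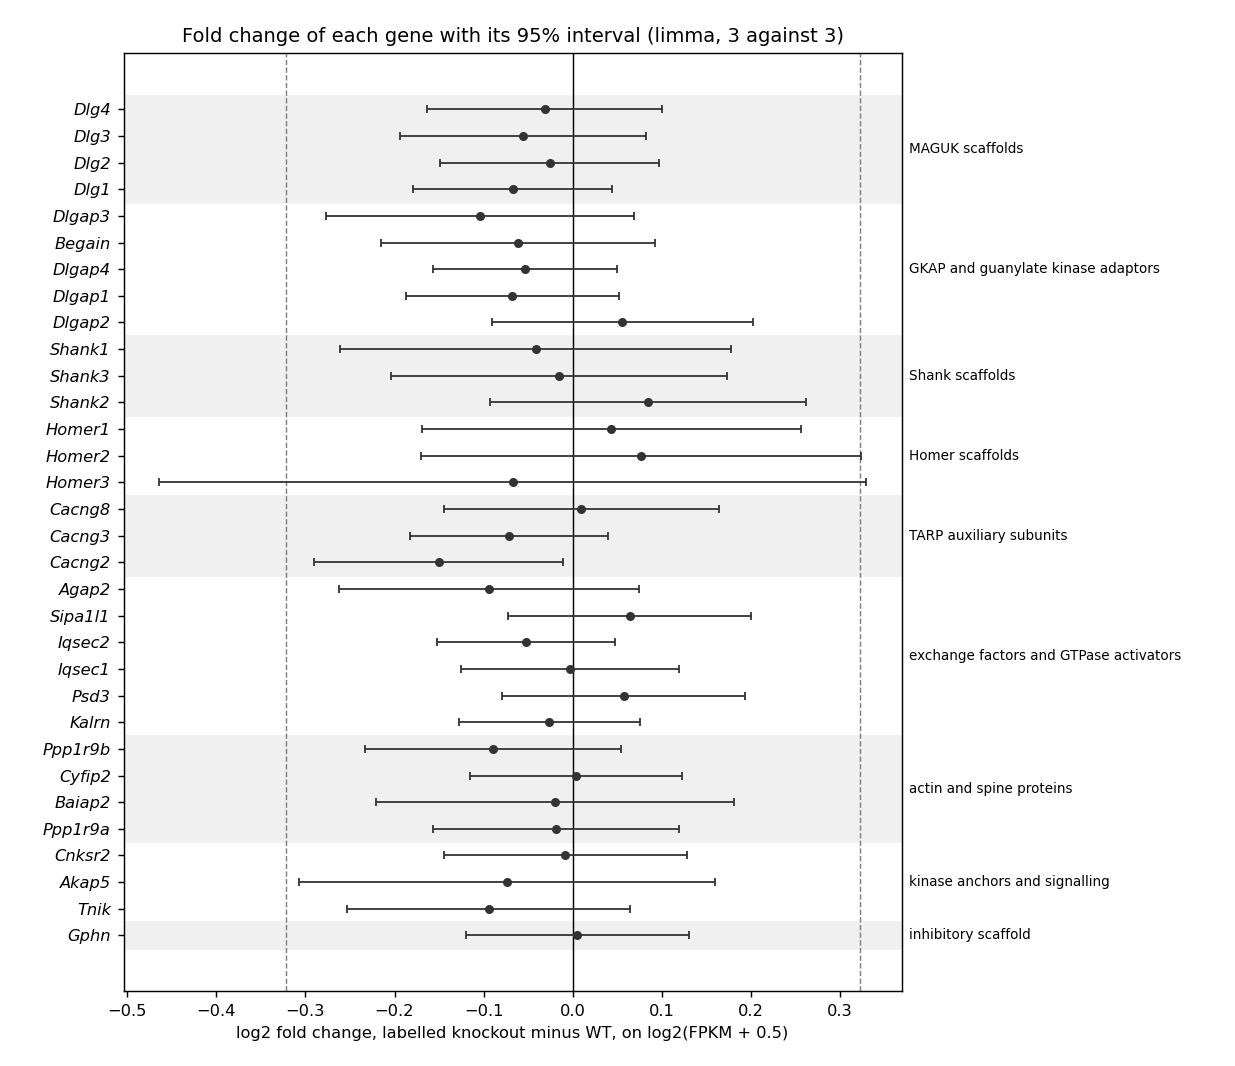
Log2 fold change of KO over WT for the 32 genes, as points, with 95% intervals from limma as bars, grouped by role. The solid line is no difference and the dashed lines are 1.25-fold either way. The interval of Cacng2, from -0.29 to -0.01, is the only one of the 32 that leaves out 0.

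The intervals cover the spread between these libraries, on the log2(FPKM + 0.5) scale. On that scale all 32 lay inside 1.5-fold either way, as did 87.3% of all genes tested, and 30 of 32 (93.8%) lay inside 1.25-fold, against 58.6%. The other 2 were Homer2 and Homer3, the least abundant members. With a pseudocount of 0.1, which shrinks low genes less, 31 of 32 lay inside 1.5-fold, and the interval of Homer3 ran from -0.60 to 0.42. It was also 31 of 32 with libraries scaled to the same sum, and without WT replicate 1, KO replicate 1 or KO replicate 3. Over the alternatives the count inside 1.25-fold ran from 25, without KO replicate 3, to 31. It was 26 without WT replicate 1. The median half-width was 0.14 log2 units, against 0.21 over all genes. The median spread between libraries of a group was 0.07 log2 units, against 0.11, and 25 of 32 members lay below the median of all genes. Iqsec2, Kalrn and Dlgap4 had the smallest spread, at 0.03 log2 units each, and Homer3 the largest, at 0.23. Members are longer (median 8820 bases against 3815) and more abundant than most genes, which gives them more reads, and the part of this in their narrow intervals was not tested.

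The make-up of each family does not depend on how libraries are scaled, so it was compared too. Dlg4 made up 45.6% ± 0.741 of Dlg FPKM in WT and 45.9% ± 0.332 in KO (SD, n = 3 each). Dlgap3 made up 62.5% ± 1.45 and 61.5% ± 2.17 of Dlgap FPKM. Shank1 made up 56.3% ± 2.26 and 55.3% ± 2.48 of Shank FPKM, and Homer1 79.4% ± 3.67 and 79.5% ± 1.92 of Homer FPKM. A single gene thus held the largest share of each of these families in all 6 libraries. The TARPs were led by a pair of near-equal genes, Cacng3 with 41.0% ± 0.876 and 40.5% ± 0.481 and Cacng8 with 40.1% ± 0.419 and 41.9% ± 2.01. Cacng2 made up 18.9% ± 0.965 and 17.7% ± 1.53, with overlapping groups. Groups overlapped for all 19 shares, with a smallest two-sided exact permutation p of 0.2 and a smallest adjusted p of 0.894. With 3 against 3 libraries this test cannot go below 0.1. No share could therefore pass the threshold, and the test cannot decide whether the make-up of a family differed. Shares of a family also depend on each other, since they add up to the whole.

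**Figure D3:**
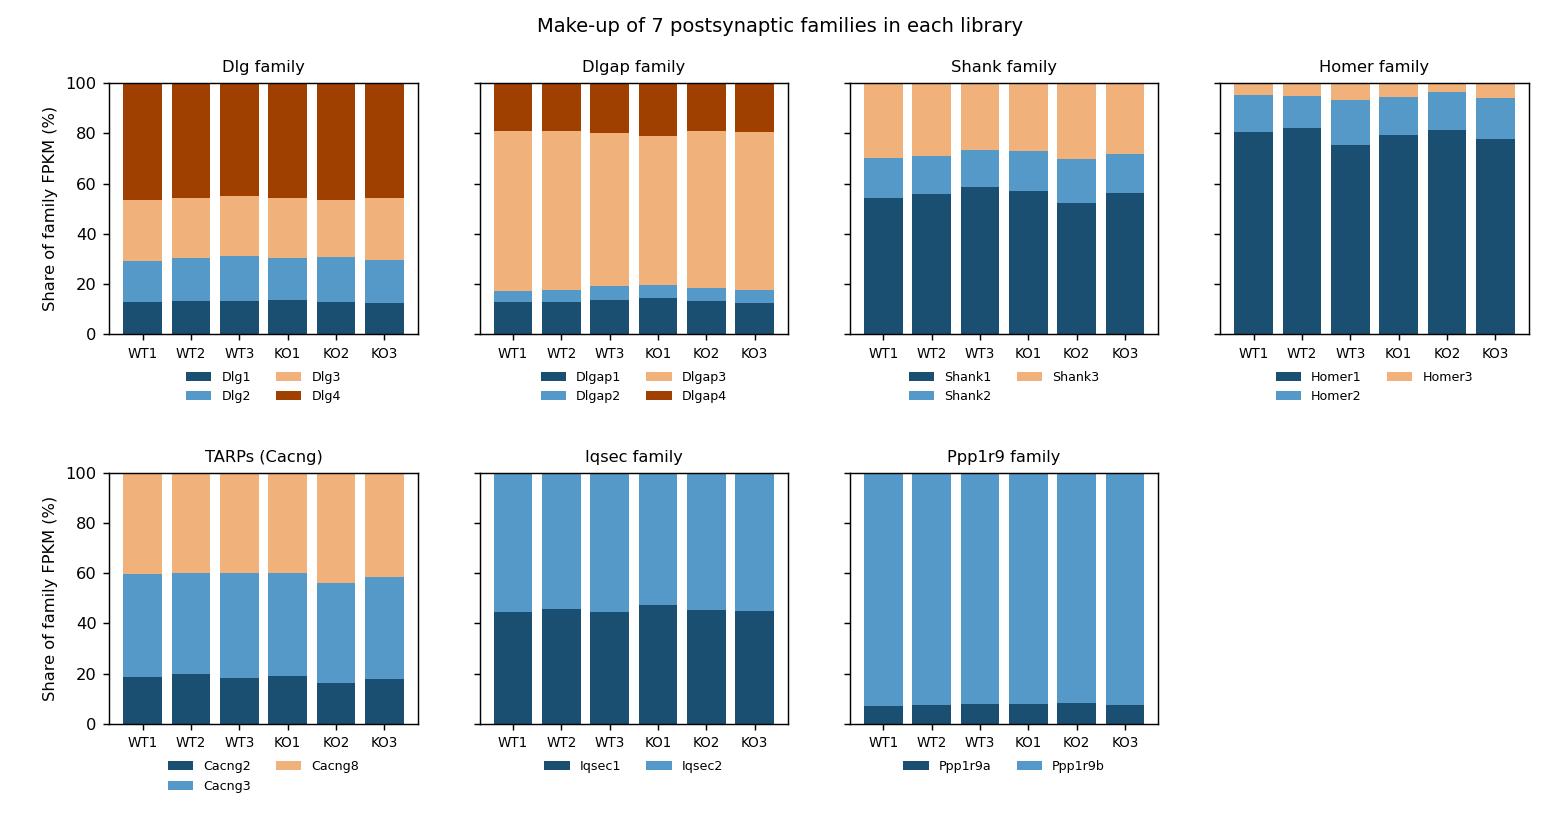
Share of each gene in the summed FPKM of its family, in percent from 0 to 100, as stacked bars for the 3 WT and 3 KO libraries. The bars of a family are nearly alike: Dlg4 holds from 44.9% to 46.4% of its family in every library, while Homer1 ranges from 75.3% to 82.2%.

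Libraries differed from each other more than the groups did for several members. KO replicate 1 was the lowest library for 11 of the 32 genes and the highest for 1, Iqsec1. WT replicate 1 was the highest for 10. The mean deviation of the members from the 6-library mean was -0.05 log2 units in KO replicate 1 and between -0.00 and 0.02 in the others. For 6 members, Dlg4, Dlgap3, Sipa1l1, Baiap2, Ppp1r9b and Akap5, the lowest libraries were WT replicate 3 and KO replicate 1, which are also the lowest in the striatal list, at -0.97 and -0.56 log2 units. For 0 members was this pair the highest. Either library of the pair was the lowest for 14 of the 32 members and the highest for 8. The share of all genes with these patterns is not given, so the counts are not read as a trait of the members. Akap5 read 12.4 FPKM in WT replicate 3 and 11.5 FPKM in KO replicate 1, and from 13.6 to 15.0 FPKM in the others. KO replicate 1 was also the highest library in the mean of 5 oligodendrocyte markers, at 0.25 log2 units. WT replicate 2 followed in that mean at 0.18, and WT replicate 3 was the lowest, at -0.24. Of these markers, Mbp was highest in WT replicate 2 and lowest in KO replicate 2. The part of striatal tissue or of oligodendrocytes in these levels was not tested.

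Without that pair, 4 of 32 members (12.5%) had an unadjusted limma p under 0.05, against 13.3% of all genes, and 0 passed. They were Cacng2, Ppp1r9b, Shank2 and Homer2. Log2 fold changes were then -0.22 for Cacng2, -0.12 for Ppp1r9b, 0.18 for Shank2 and 0.23 for Homer2. The adjusted limma p of these 4, with 2 libraries per group, was 0.275 for Cacng2, 0.339 for Ppp1r9b, 0.312 for Shank2 and 0.320 for Homer2. The libraries left also parted in genes above 0 FPKM. WT replicates 1 and 2 had 25973 and 25630, and KO replicates 2 and 3 had 26586 and 26430. WT replicate 3 had 26423 and KO replicate 1 had 25938. Without that pair, genotype and this difference between libraries cannot be told apart.

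**Figure D4:**
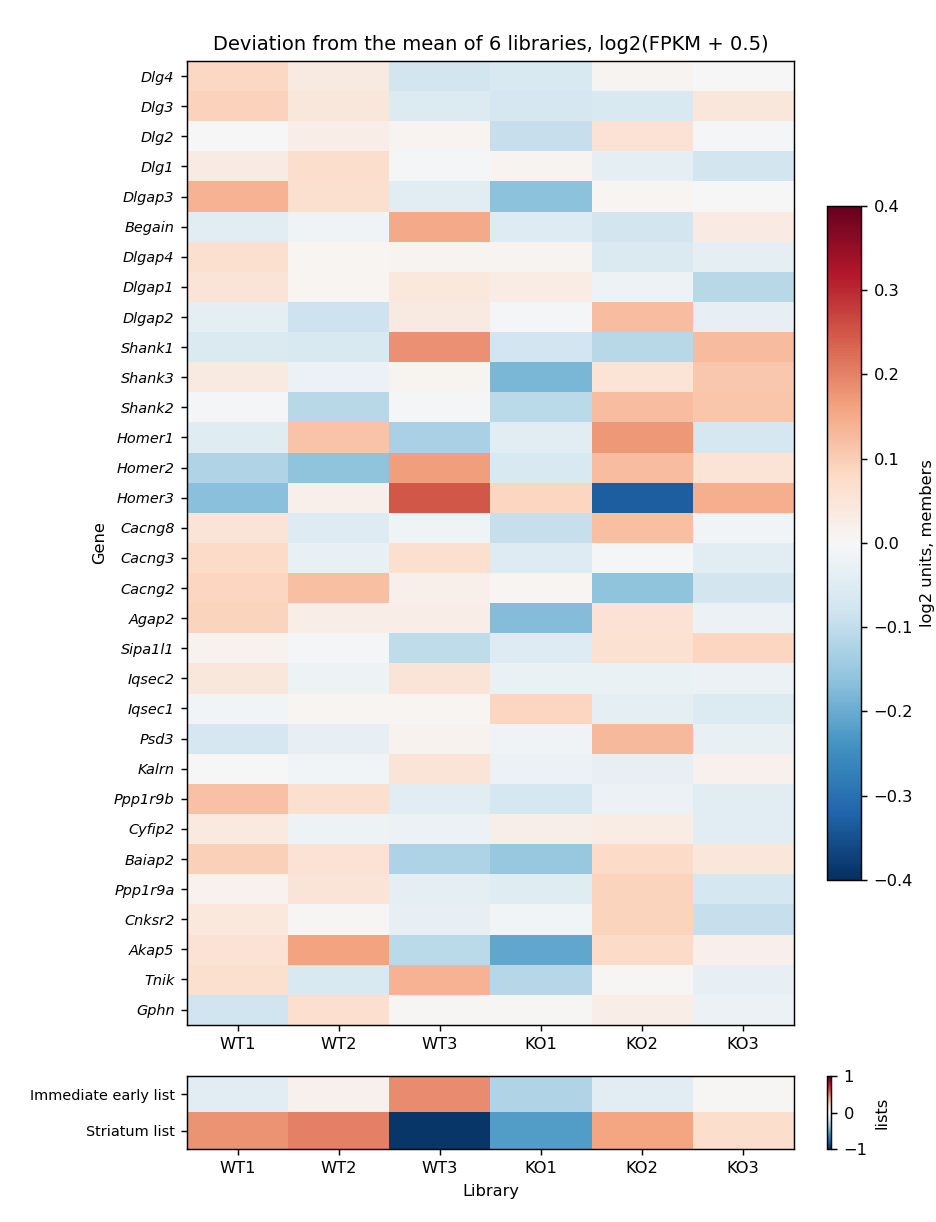
Deviation of each gene from its mean over the 6 libraries, in log2 units of FPKM + 0.5, with red above and blue below the mean. The lower strip gives the means of the immediate early and striatal lists on a wider colour scale. KO replicate 1 is the bluest column, and WT replicate 3 holds 0.47 for the immediate early list and -0.97 for the striatal list.

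The partners of these scaffolds gave a like picture. Of 45 other excitatory postsynaptic scaffold and signalling genes 0 passed in limma and 0 had an unadjusted p under 0.05, with 21 estimates above 0, 24 below and a median of 0.00. Groups did not overlap for 5 of them (11.1%), near the 8.87% of all genes. Psd, an Arf6 exchange factor related to Psd3, read 85.7, 81.9 and 83.5 FPKM in WT and 76.8, 79.9 and 76.6 FPKM in KO, and its groups did not overlap. Camk2b, the beta subunit of the kinase most abundant at this site, read 113, 101 and 101 FPKM in WT and 96.9, 96.5 and 97.7 FPKM in KO. Lin7a, a PDZ adaptor, and Grip1, which binds AMPA receptors, were above WT in all 3 KO libraries, with log2 fold changes of 0.15 and 0.16. Of 14 glutamate receptor genes 0 passed in limma and 1 had an unadjusted p under 0.05. This was Grm3, a metabotropic receptor, at 15.5, 17.1 and 13.5 FPKM in WT and 19.2, 19.6 and 17.1 FPKM in KO. On the log2 scale Grm3 stood 0.28 higher in KO (limma adjusted p = 0.999). Of 16 genes of the inhibitory postsynapse, where Gphn works, 0 passed and 0 had an unadjusted p under 0.05 in limma, with a median of -0.01.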

How the data were processed

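The authors deposited 1 table of FPKM values per gene for 6 libraries. Per the submitters' processing notes, Bowtie and the mm10 build were used. Counting program, annotation and use of strand: not given in the sources used here. Reads were recovered by multiplying each value by gene length and dividing by the worth of 1 read. Whole numbers, to a tolerance of 0.001, came out for 100% of values. The recovered reads of a library summed to between 0.979 (KO replicate 3) and 1.012 (WT replicate 1) of the depth that its values imply. The deposited scaling is therefore not by that sum alone. All 32 members have the exon length of GENCODE M21.

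From the deposited FPKM, genes with a mean of at least 0.5 were tested as log2(FPKM + 0.5) with limma 3.58.1 in R 4.3.3. The fit had a variance trend and no covariate, and was two-sided with Benjamini-Hochberg adjustment over all 15694 genes, threshold 0.05. It was checked on simulated data. Fold changes are on that log2 scale. Shares were tested by exact permutation (SciPy 1.17.1), adjusted over 19 shares. All 32 members may be named, and from other lists up to 4 genes with the smallest p. A730060N03Rik and Ddx49 fall outside this rule, as exon neighbours. Members and lists were chosen with earlier results of these data known. Even the most similar pair of libraries differed by 3.08 times sampling noise (median chi-square over genes), so none was treated as a duplicate. Alternatives were 2 pseudocounts, filters, scalings, variance settings, sample weights, voom, a gene length trend, a replicate block and left-out libraries.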

Additional observations from a re-analysis of the deposited data

How the results depend on the processing

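In all 18 alternatives 0 members passed the adjusted threshold, and 529 of 576 member estimates kept their direction. Reversals touched 15 members. With sample weights Dlg2 was at 0.0034, Shank3 at 0.013, Ppp1r9a at 0.0043 and Cnksr2 at 0.012. With libraries scaled to the same sum, Shank3 was at 0.0056, Iqsec1 at 0.018, Baiap2 at 0.0014, Ppp1r9a at 0.0030 and Cnksr2 at 0.013. With median scaling Cacng8 was at -0.00034, Cyfip2 at -0.0062 and Gphn at -0.0050. With the gene length trend removed Cyfip2 was at -0.0059 and the member median at -0.055, against -0.01 over all genes. Without both WT replicate 3 and KO replicate 1, Dlg2 was at 0.014, Begain at 0.0092, Shank1 at 0.067, Shank3 at 0.074 and Cyfip2 at -0.018, and 1 gene of the table, no member, passed. The cause was not tested.

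Leaving out each library in turn gave Akap5 -0.15 to 0.011, Baiap2 -0.087 to 0.051, Cacng8 -0.047 to 0.059, Cnksr2 -0.055 to 0.036, Cyfip2 -0.0096 to 0.028, Dlg2 -0.061 to 0.014 and Dlg4 -0.076 to 0.0026. It gave Gphn -0.034 to 0.040, Homer1 -0.033 to 0.11, Homer3 -0.17 to 0.081, Iqsec1 -0.047 to 0.023, Ppp1r9a -0.068 to 0.012, Shank1 -0.11 to 0.039 and Shank3 -0.073 to 0.072. The count of members at an unadjusted p under 0.05 ran from 0 to 2 and was 0 with no variance trend and 4 without the pair. Over all genes that count ran from 426 to 1023, and was 1214 with no filter, 1420 with sample weights and 2092 without the pair.

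With the replicate block, 0 members had an unadjusted p under 0.05, and Cacng2 was at limma unadjusted p = 0.0515. Deviations of same-numbered libraries correlated at 0.08, 0.01 and 0.21, the last being the highest of any WT with KO pair. WT replicate 2 correlated best with KO replicate 1, at 0.11. So few values cannot decide whether same-numbered libraries were paired, and the labels state no pairing. Homer3 had the fewest reads of the members, 111 to 193 per library, and the part of depth in its spread was not tested.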
